A study of Sus scrofa with 12 samples.

Results

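The translation initiation factors (eIF) and elongation factors (eEF) of porcine oocytes were followed as a family. Its members are all genes whose pig symbol starts with EIF or EEF, leaving out EIF4ENIF1 and EIF4E1B. There were 54 of them among the 31908 genes listed. Of these, 40 had an average FPKM of 1 or more across the 12 libraries and were tested, as were 7013 genes in all. The 52 symbols of the annotation table were joined by EIF3K and EIF5, whose identifiers are named in the supplementary table of the study. EIF2S3, EIF2B1, EIF3C, EIF4EBP3, EIF5A, EIF5AL1, EEF1A1, EEF1G, EEF1AKMT1, EEF1AKMT2, EEF1AKMT4, EEF1AKNMT and EEF2KMT were not analysed here. The oocytes came from prepubertal gilts, were matured in vitro as cumulus-oocyte complexes and were stripped of their cumulus cells. Pooled oocytes were sampled after 0h, 22h or 46h in the maturation medium, and every time point has 4 replicates. The design text ties these times to the germinal vesicle stage, the stage before the first metaphase and the second metaphase, although it gives the middle time as 24h where the sample labels give 22h. In earlier work cited by the paper, a part of the oocytes was not at the expected stage at similar times, most of all at the last. A pool may thus hold oocytes of other stages. The labels give no genotype, and the stages differ in them by culture time alone. Each library is a pool of oocytes, and no source says that replicates came from separate cultures, so p-values measure the spread between these libraries.

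Translation of an mRNA starts when eIF4E binds its cap, eIF4G and the helicase eIF4A prepare its leader, and eIF3 with eIF2 and the initiator tRNA bring the small ribosomal subunit to the start codon. eIF1 and eIF5 control the choice of the start codon, eIF2B reloads eIF2 with GTP, and 4 kinases slow initiation by phosphorylating eIF2. The eEF proteins then carry aminoacyl-tRNAs to the ribosome and move it along the mRNA. A maturing oocyte is almost silent in transcription and depends on the translation of stored mRNAs, many of them switched on or off through their poly(A) tails.

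FPKM counts fragments corrected for transcript length and library size, so levels can be compared between genes per length. The total FPKM lay between 697468 and 802184 in the 12 libraries. Genes with 1 FPKM or more numbered 6939 to 7895 in the 0h libraries, 6682 to 7135 in those of 22h and 5819 to 6076 in those of 46h. Read counts cannot be had from these values, so the depth behind them is unknown. All 9 matched oocyte markers were above 1 FPKM in some library, although at 46h FIGLA and ZAR1 were at 1.04 to 1.80 and 0.50 to 1.16 FPKM. Of the 13 matched cumulus and granulosa cell markers, 11 were under 1 FPKM in every library of every stage, with FSHR at most 0.14 and CYP11A1 at most 0.31, and INHA and LHCGR were listed at 0 in all. The other 2 were STAR at 2.06 to 7.58 FPKM and VCAN, whose 104.6 to 135.5 FPKM at 46h lay above the 29.01 to 81.9 at 0h, and the part of these in the results was not tested. The library 0h replicate 4 correlated least with the others of its stage (mean r = 0.9502 across genes, against 0.967 to 0.978). Libraries were primed with oligo-dT, so a loss of an mRNA and a loss of its poly(A) tail cannot be told apart. The same holds for a gain of an mRNA and a gain of its poly(A) tail. The study's methods give the same number of oocytes for every library, and FPKM, being relative to each library, do not show the RNA content of an oocyte.

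Most members that changed fell, and more were called lower at 46h than at 22h against the 0h libraries. Genes were tested with limma on log2(FPKM + 1), and a gene was called when it passed a Benjamini-Hochberg adjusted p of 0.05 with a fold change above 1.5. At 22h against 0h, 5 of the 40 tested members were higher (12.5%, against 7.84% of all 7013 genes) and 16 were lower (40%, against 18.9%). At 46h against 22h, 1 member was higher (2.5%, against 9.87%) and 19 were lower (47.5%, against 32.6%). At 46h against 0h, 8 members were higher (20%, against 16.8%) and 24 were lower (60%, against 39.1%). The members had a median log2 fold change of -0.21, -0.59 and -1.13 in these comparisons, beside -0.0012, -0.26 and -0.25 over all genes tested. The first of these medians rested on single libraries: it was -0.0022 without 22h replicate 1 (all genes -0.0014), -0.33 without 22h replicate 3 and -0.13 without 0h replicate 2 or 3. Other scalings moved the members' medians and those of all genes together. The members' medians were -0.17, -0.36 and -0.81 with median-of-ratios scaling (all genes 0.04, 0.02 and 0.06) and -0.07, -0.24 and -0.50 after quantile normalization (all genes 0.14, 0.21 and 0.37). The comparisons share their libraries and are not independent of each other. The tested members passed the filter on their mean level. EIF2B4 and EIF3K passed it only through 0h, their mean at each later stage being under 1 FPKM, and both are among the lower members at 22h and at 46h against 0h. EIF1AD, with mean levels of 4.98, 1.18 and 0.22 FPKM at the successive stages, also depended on its 0h level to pass. It is among the members lower in all 3 comparisons. The 14 members that did not pass are given with their FPKM below.

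Of the 40 tested members, 11 were lower in all 3 comparisons, none was higher in all 3, and 6 passed in none (27.5%, 0% and 15%, beside 11.6%, 0.955% and 36.3% of all genes tested). The 11 were EEF1B2, EIF1AD, EIF2B2, EIF2B3, EIF2S2, EIF3G, EIF3L, EIF3M, EIF4B, EIF4E2 and EIF6. EEF1D, EIF2S1, EIF3B, EIF3H, EIF4A1 and EIF4E did not pass at 22h against 0h and were lower at 46h than at either stage. The 8 members higher at 46h than at 0h were EIF1, EIF2A, EIF2AK4, EIF3E, EIF3J, EIF4E3, EIF5 and EIF5A2. The 6 that passed in no comparison were EIF1AX, EIF3I, EIF4A2, EIF4G2, EIF4G3 and EIF5B. Of these, EIF4G2 was called higher at 46h against 0h with median-of-ratios scaling. After quantile normalization EIF4G2 and EIF1AX were both called higher in that comparison.

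The scaling of the libraries moved the balance of these counts. Protein genes encoded by the mitochondrion held between 1.79% and 3.76% of the total FPKM at 0h, between 8.06% and 12.02% at 22h and between 12.8% and 16.7% at 46h. At 46h against 0h the median over all genes (log2) moved from -0.25 as deposited to 0.06 with median-of-ratios scaling and 0.37 after quantile normalization. With these scalings, 9 and 10 members were higher and 22 and 18 lower at 46h against 0h, so that the share of higher members among those called was 25% as deposited, 29.03% and 35.7%. The members called higher were then 22.5% and 25% of those tested, beside 29.2% and 41.02% of all genes, so that their share lay below that of all genes and not above it as with the deposited values. The members called lower were 55% and 45%, beside 32.97% and 25.5% of all genes. At 46h against 22h there were 6 and 5 higher members in place of 1, and 15 and 12 lower in place of 19, so that the share of higher members was 5% as deposited, 28.6% and 29.4%. These were 15% and 12.5% of the tested members, beside 20.06% and 28.1% of all genes, and the lower ones were 37.5% and 30%, beside 25.6% and 19.1% of all genes.

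**Figure D1:**
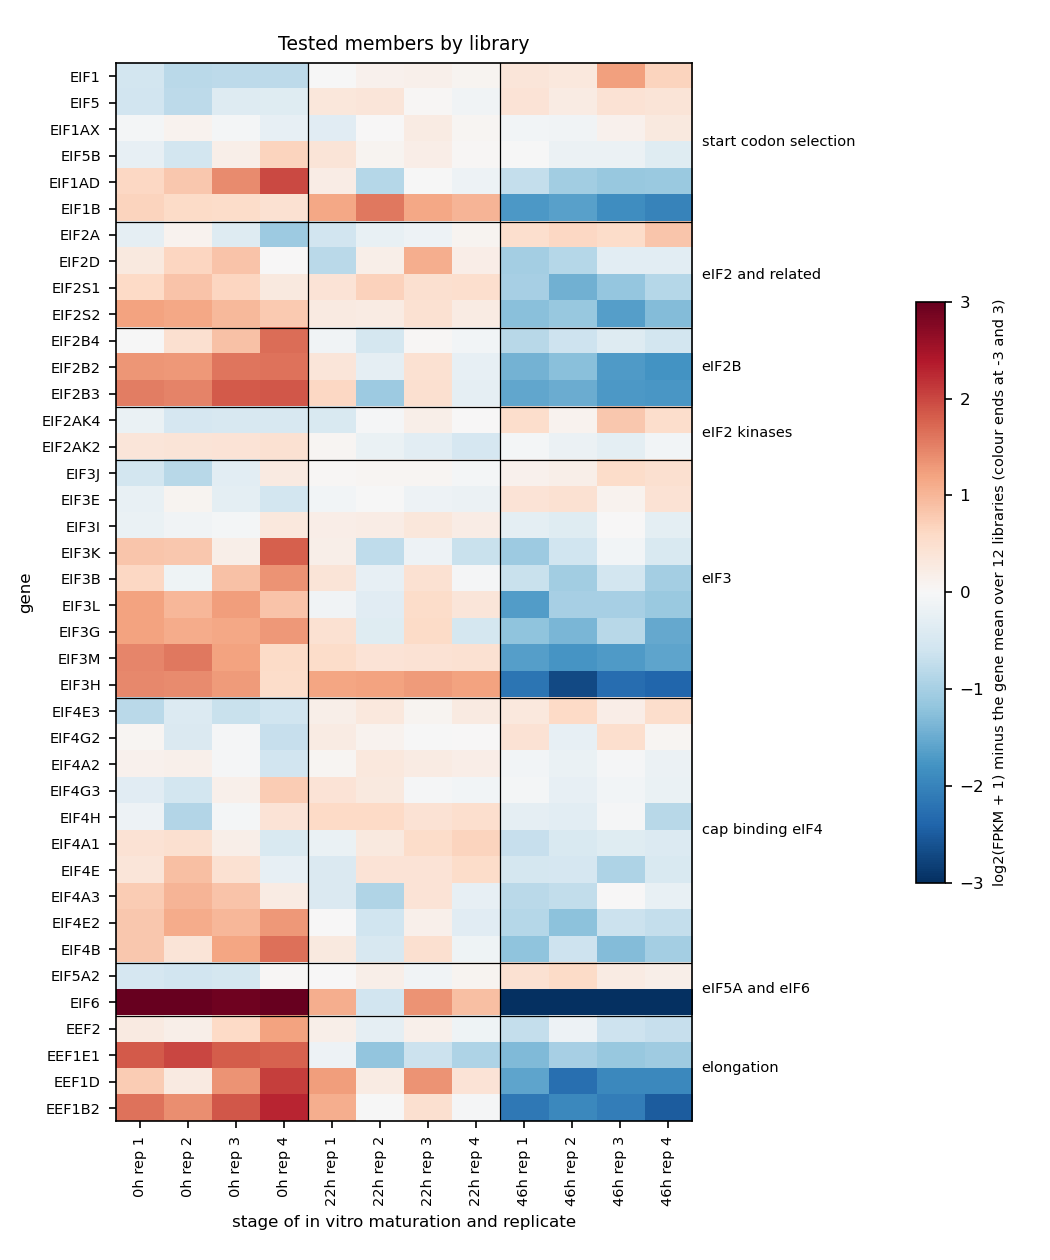
The 40 tested members (rows, grouped by role) in the 12 libraries (columns, by stage and replicate), with colour giving log2(FPKM + 1) minus the mean of the gene over all libraries. The 46h columns are mostly blue for the 24 members called lower than at 0h, and EIF6 spans the whole colour scale, from 3 to -3.

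**Figure D2:**
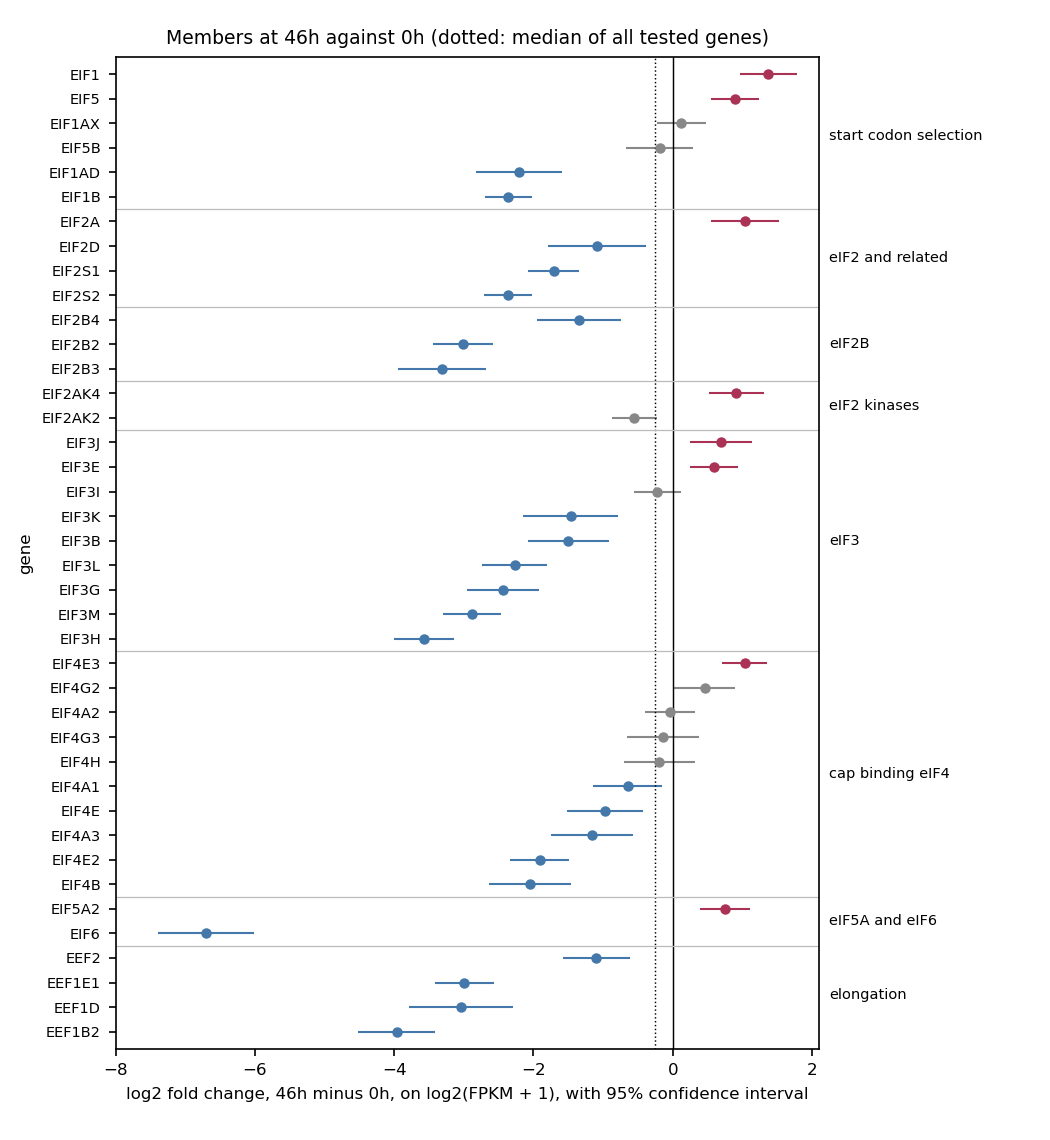
Log2 fold change of the 40 tested members at 46h against 0h on the log2(FPKM + 1) scale, as points with 95% confidence intervals from limma over 12 libraries, in red where called higher, blue where called lower and grey otherwise. EIF6 stands lowest at -6.70, EIF1 highest at 1.37, and the dotted line is the median of all tested genes at -0.25.

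The build of the members' transcripts, which the choice of members did not use, is described here without a test. One RefSeq transcript was matched by symbol for 37 of the 40 tested members in Sscrofa11.1. The authors aligned to Sscrofa11, and their gene models may end elsewhere. The median 3' untranslated region was 898 bases long in the 8 members higher at 46h than at 0h (142 to 5485), 212 bases in the 21 lower members with a transcript (37 to 3145) and 766 bases in the 8 others. Over all tested genes with a transcript it was 899.5 bases for the 956 higher genes and 598.5 for the 2164 lower genes. The GC content of the whole transcript had a median of 41.3% in the higher members and 53.4% in the lower members, beside 43.7% and 49.5% over all tested genes. The ranges overlapped, from 32.7% to 48.4% and from 36.1% to 69.4%.

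The last 100 bases of these transcripts were searched on the transcript strand for the polyadenylation hexamer (AATAAA or ATTAAA) and for the cytoplasmic polyadenylation element, CPE (TTTTAT or TTTTAAT), the motif through which stored mRNAs are known to gain poly(A) in maturing oocytes. No motif of these contains another. Among transcripts with a 3' untranslated region of at least 100 bases, 1178 of 5136 (22.9%) held a CPE and 77.5% a hexamer. Among such members, 6 of 32 held a CPE (18.8%) and 25 a hexamer (78.1%). By call at 46h against 0h, the share with a CPE over all tested genes was 30.4% for higher, 16.8% for lower and 25.0% for other genes. The CPE stood in 2 of 8 higher members (EIF1 and EIF3J), in 2 of 17 lower members (EIF2D and EIF4E) and in 2 of 7 others (EIF4G2 and EIF5B). A match is a description of letters and not a shown site.

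The CPE windows of EIF1 and EIF3J, which rose, and of EIF4G2, which passed in no comparison, are shown first, with the CPE in capitals, 5' to 3' on the transcript strand.
EIF1, chr12:20974537-20974566, minus strand: ttcccccttcagTTTTAATgttatgtaatg
EIF3J, chr1:126998643-126998672, minus strand: acatctgcaatgTTTTATaaagcaactaat
EIF4G2, chr2:48678603-48678632, plus strand: ttcatgccctgaTTTTATatacttgtatct

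The ends of EIF1 and of 4 members with deep falls are shown next around the last hexamer, in capitals. EIF6, EIF3M and EIF3H had no CPE in the bases searched, and the 3' untranslated region of EEF1B2, 45 bases long, fell outside the count.
EIF1, chr12:20974501-20974530, minus strand: aacccttatttaAATAAAacttgttttcag
EIF6, chr17:38638300-38638329, minus strand: ctgtgccaccccATTAAAgggcagtttcct
EIF3M, chr2:28258407-28258436, minus strand: aggatacaaagtAATAAAttacagagggtc
EIF3H, chr4:22053650-22053679, plus strand: acataataataaAATAAAgataaaacaatc
EEF1B2, chr15:109455498-109455527, plus strand: ctgttgcccttcAATAAAagtttgaaagac

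As a sum, the 54 members took 1.35%, 1.33%, 1.14% and 0.90% of the total FPKM in the 0h libraries. At 22h the shares were 0.90%, 0.87%, 0.97% and 0.89%, and at 46h they were 0.48%, 0.46%, 0.59% and 0.49%. All 46h libraries thus lay under all others, while the lowest 0h library, replicate 4, lay within the 22h values. The mean share fell from 1.18% ± 0.21 (SD, n = 4) at 0h to 0.50% ± 0.058 at 46h (p = 0.0286 in an exact two-sided permutation test, the smallest that 4 against 4 libraries allow). It fell from 0.91% ± 0.046 at 22h with the same p of 0.0286 in the exact permutation test. From 0h to 22h the difference of -0.27 percentage points did not pass (exact permutation p = 0.0857), and without 0h replicate 4 it was -0.37 (p = 0.0286, exact). A single subunit, EIF3M, made up between 37.7% and 55.8% of the members' FPKM at 0h, between 35.5% and 37.6% at 22h and between 11.8% and 15.2% at 46h. Without it the mean shares were 0.59% ± 0.035, 0.58% ± 0.034 and 0.43% ± 0.058.

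**Figure D3:**
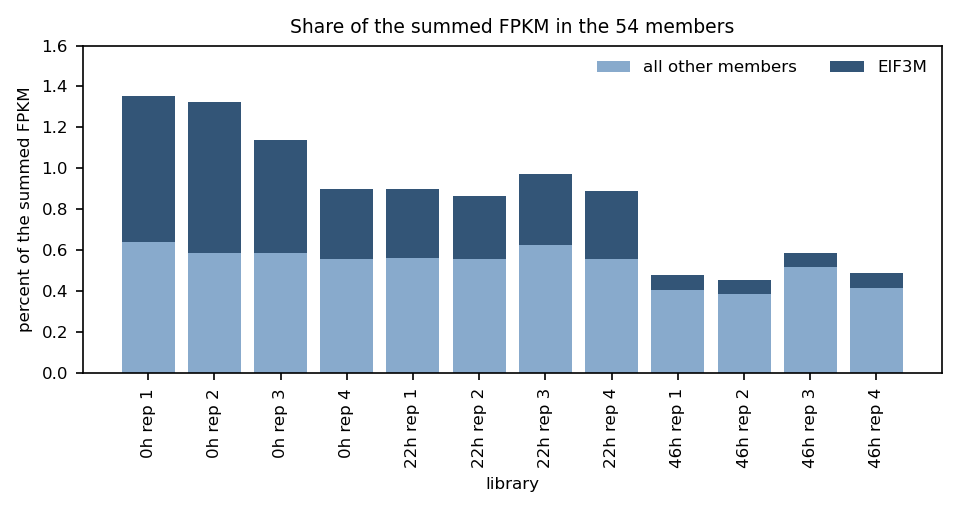
Share of the summed FPKM of each library held by the 54 members (bar height, percent of total), with EIF3M as the dark upper part. The 46h bars end between 0.46% and 0.59%, below every bar of 0h and 22h, and EIF3M shrinks to at most 15.2% of the members' sum.

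Among the factors that select the start codon, EIF1 and EIF5 rose while the EIF1 paralog EIF1B fell after 22h. EIF1 keeps the scanning small subunit from settling on a wrong codon. Its level was 558, 466, 475 and 470 FPKM at 0h, 808, 893, 902 and 867 at 22h, and 1053, 1008, 1920 and 1294 at 46h. The stages did not overlap, and 46h replicate 3 was the highest library. The log2 fold change was 0.82 ± 0.19 (SE) at 22h against 0h (adjusted p = 0.00523) and 1.37 ± 0.19 at 46h against 0h (adjusted p = 2.07e-05), while the step of 0.56 from 22h to 46h was under the fold threshold. With median-of-ratios scaling EIF1 was called higher in that step too. EIF1B stood at 295, 278, 270 and 254 FPKM at 0h, 413, 559, 417 and 379 at 22h, and 55.7, 59.6, 50.4 and 45.5 at 46h. It was thus highest at 22h and lowest at 46h, with no overlap between stages. The change was 0.67 ± 0.16 at 22h against 0h (adjusted p = 0.00557), which without 22h replicate 2 was 0.55 and under the fold threshold, and -3.03 ± 0.16 at 46h against 22h (adjusted p = 2.13e-09).

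The ratio of EIF1 to EIF1B in FPKM was between 1.68 and 1.89 at 0h, between 1.596 and 2.29 at 22h and between 16.9 and 38.1 at 46h. The log2 ratio was higher by 3.59 at 46h than at 22h, with no overlap of the libraries (exact two-sided permutation p = 0.0286, adjusted p = 0.0571). The adjustment covered 30 tests, those of 10 related pairs in 3 comparisons, and none of the 30 passed an adjusted p of 0.05. The smallest p that the exact test allows, 0.0286, was reached in 15 of them. The paralogs are alike in sequence, so the split of reads between them rests on the authors' quantification.

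EIF5, which makes eIF2 hydrolyse its GTP at the start codon, was at 69.3, 60.0, 80.2 and 80.8 FPKM at 0h, 133, 135, 107 and 96.3 at 22h, and 139, 124, 140 and 137 at 46h. Every later library lay above the 0h libraries, and the 22h and 46h ranges overlapped. The change at 46h against 0h was 0.89 ± 0.16 (adjusted p = 0.000225). EIF5B, which joins the ribosomal subunits, was among the most abundant members between 237 and 560 FPKM at 0h, between 359 and 458 at 22h and between 272 and 348 at 46h, and passed in no comparison. EIF1AX, the partner of eIF1 in scanning, stayed between 3.79 and 6.38 FPKM in all libraries and also passed in none. After quantile normalization it was called higher at 46h against 0h. EIF1AD, which depended on its 0h level to pass the filter, fell from 4.98 ± 2.64 FPKM (SD) at 0h to 1.18 ± 0.63 at 22h and 0.22 ± 0.18 at 46h. The log2 fold change was -2.21 ± 0.29 (SE) over the whole maturation (adjusted p = 1.09e-05). Its step from 22h to 46h, -0.80, lost the call in 6 fits that left out 1 library (22h replicate 1, 3 or 4, or 46h replicate 2, 3 or 4), with values from -0.66 to -0.79, and with no filter on low values (adjusted p = 0.1) or quantile normalization (-0.19). EIF1AY was listed at 0 in all 12 libraries. It is one of the 14 members under the filter, for which 42 exact permutation tests were made. Of these 11 reached the smallest p, 0.0286, and none passed adjustment over the 42 (smallest adjusted p = 0.109), so their exact p-values are unadjusted where given.

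The 2 measured subunits of eIF2, which carries the initiator tRNA, both fell, while EIF2A, an unrelated protein that can also bind that tRNA, rose. At 46h against 0h, 39.1% of all genes were lower and 16.8% higher. EIF2S2, the beta subunit, was at 217, 210, 183 and 160 FPKM at 0h, 112, 110, 128 and 109 at 22h, and 38.6, 41.6, 28.8 and 37.1 at 46h. The stages did not overlap. The change was -0.73 ± 0.16 at 22h against 0h (adjusted p = 0.00351) and -1.63 ± 0.16 at 46h against 22h (adjusted p = 1.26e-06). EIF2S1, the alpha subunit that the eIF2 kinases phosphorylate, was at 14.8 to 22.1 FPKM at 0h and 16.0 to 19.6 at 22h, and only then fell to 3.70 to 6.10 at 46h (-1.63 ± 0.17 against 22h, adjusted p = 2.28e-06), under all earlier libraries. EIF2A rose from 7.56 to 18.5 FPKM at 0h and 11.2 to 18.5 at 22h to 25.0 to 31.6 at 46h. With the deposited values it was the only member called higher at 46h against 22h (0.84 ± 0.23, adjusted p = 0.00734). Its 46h libraries lay above all earlier ones. Median-of-ratios scaling added EIF1, EIF2AK4, EIF3E, EIF3J and EIF5A2 to the members called higher in that step. Quantile normalization added EIF2AK4, EIF3J, EIF4E3 and EIF5A2, and TPM without mitochondrially encoded genes added EIF2AK4. EIF2D, a further tRNA-binding factor, fell from 3.29 ± 1.09 FPKM (SD) at 0h to 1.02 ± 0.49 at 46h and passed in that comparison (-1.08 ± 0.33, adjusted p = 0.0099), but not after quantile normalization (-0.40, adjusted p = 0.292).

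Of eIF2B, the exchange factor that reloads eIF2, 3 subunits were tested. EIF2B2, EIF2B3 and EIF2B4 were each lower at 22h and at 46h than at 0h, as were 18.9% and 39.1% of all genes, EIF2B4 having passed the filter only through its 0h level. EIF2B3, the gamma subunit, was at 24.3, 23.3, 30.1 and 30.6 FPKM at 0h, 12.5, 3.11, 11.14 and 6.24 at 22h, and 1.95, 2.1, 1.63 and 1.59 at 46h. The stages did not overlap, and 22h replicate 2 was low within its stage. The change from 0h to 46h was -3.31 ± 0.29 (adjusted p = 2.31e-07). EIF2B2 was at 12.4 ± 1.6 FPKM (SD) at 0h, 4.23 ± 1.37 at 22h and 0.67 ± 0.28 at 46h. EIF2B4 passed at 22h and 46h against 0h but at 0.87 to 5.06 FPKM at 0h was the least even of the 3, and its 0h replicate 1 lay within the 22h values. Its call at 22h (-0.92) was lost without 0h replicate 3 (-0.88), without 22h replicate 2 (-0.80), with no filter on low values (adjusted p = 0.0657) and in a limma fit of the stages compared alone (adjusted p = 0.056). Its call at 46h (-1.35) was lost after quantile normalization (-0.57, under the fold threshold). EIF2B5, the catalytic subunit, was under the filter at 0.72, 0.68, 0.63 and 2.16 FPKM at 0h, then between 0.16 and 0.44 at 22h and between 0.07 and 0.27 at 46h, and the 0h libraries lay above all later ones (exact permutation p = 0.0286 against either stage). The summed FPKM of these 4 subunits was 43.0 ± 7.5 (SD, n = 4) at 0h, 13.5 ± 5.9 at 22h and 2.88 ± 0.46 at 46h.

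Of the 4 eIF2 kinases, 2 were above the filter, of which one was lower at 22h and the other higher at 46h, each against 0h. Over all genes, 18.9% were lower at 22h and 16.8% higher at 46h against 0h. EIF2AK2 (PKR), which senses double-stranded RNA, was at 21.2, 21.7, 22.0 and 22.7 FPKM at 0h, 17.1, 14.1, 12.9 and 11.2 at 22h, and 15.6, 14.5, 13.2 and 15.4 at 46h. All later libraries lay below those of 0h, and the call was made at 22h (-0.64 ± 0.15, adjusted p = 0.005) but not at 46h, where -0.55 was under the fold threshold. The value at 22h also fell under that threshold without 22h replicate 4 (-0.55), after quantile normalization (-0.54) and with TPM without mitochondrially encoded genes (-0.57). With TPM of all genes EIF2AK2 was called lower at 46h against 0h as well. EIF2AK4 (GCN2), which senses uncharged tRNA, was at 5.08, 3.95, 3.97 and 4.0 FPKM at 0h, 4.06, 5.84, 6.93 and 6.04 at 22h, and 9.05, 6.55, 11.3 and 9.05 at 46h. Its 46h libraries lay above all 0h libraries (0.91 ± 0.18, adjusted p = 0.000589). EIF2AK1 (HRI, sensitive to haem) and EIF2AK3 (PERK, sensitive to stress of the endoplasmic reticulum) were at most 0.21 and 0.15 FPKM in any library.

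eIF3, the largest initiation factor, serves as the platform on the small ribosomal subunit. Of 12 subunits with a row, 9 were tested, and at 46h against 0h 6 were lower (66.7%, against 39.1% of all genes) and 2 higher (22.2%, against 16.8%); the same 6 and 2 counts were found after median-of-ratios scaling, where 32.97% of all genes were lower and 29.2% higher, and after quantile normalization, where 25.5% were lower and 41.02% higher. With TPM 1 subunit was higher. The 6 lower subunits include EIF3K, which passed the filter only through its 0h level, so that the filter favoured its fall. EIF3M was the most abundant member of the family at 0h and 22h, ranked 25th of all genes by mean FPKM at 0h. At 46h it ranked 170th, below EIF1 at rank 72. Its level was 4952, 5353, 4146 and 2649 FPKM at 0h, 2616, 2381, 2431 and 2452 at 22h, and 572, 528, 550 and 597 at 46h. The stages did not overlap, though 0h replicate 4 came close to the 22h libraries. The change was -0.74 ± 0.19 at 22h against 0h (adjusted p = 0.0103), which with median-of-ratios scaling was -0.70 and no longer passed (adjusted p = 0.0537), and -2.14 ± 0.19 at 46h against 22h (adjusted p = 5.98e-07).

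EIF3H held its level to 22h and then fell 12.5-fold in mean FPKM. It was at 439, 429, 394 and 237 FPKM at 0h, 367, 370, 393 and 370 at 22h, and 34.4, 23.6, 32.3 and 29.9 at 46h. The 0h and 22h libraries overlapped, and those of 46h lay far below (-3.61 ± 0.20 against 22h, adjusted p = 3.58e-09). EIF3E ran the other way, with 264, 326, 249 and 211 FPKM at 0h, 288, 304, 274 and 273 at 22h, and 411, 421, 329 and 411 at 46h. The 46h libraries lay above all others, the nearest being 46h replicate 3 and 0h replicate 2. Its change at 46h against 0h, 0.59 ± 0.16 (adjusted p = 0.00507), was close to the fold threshold, and with 0h replicate 3 or 4 or 46h replicate 1, 2 or 4 left out the values of 0.49 to 0.57 were under it, as was the 0.49 with TPM. The change was larger with median-of-ratios scaling (0.99) and after quantile normalization (0.74). EIF3J, a loosely bound subunit, rose from 15.9 to 34.8 FPKM at 0h to 31.9 to 42.5 at 46h (0.69 ± 0.21, adjusted p = 0.00884), and 0h replicate 4 lay within the 46h values. Without 0h replicate 2 its value was 0.54 and under the threshold.

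EIF3G and EIF3L were also lower at 22h and at 46h than at 0h. So was EIF3K, which passed the filter only through 0h, with mean levels of 3.31, 0.715 and 0.48 FPKM at the successive stages. EIF3L went from 57.2 to 75.7 FPKM at 0h over 24.5 to 46.1 at 22h to 9.10 to 15.2 at 46h, with no overlap of the stages. EIF3B, a core subunit, was between 1.77 and 6.65 FPKM at 0h, between 1.54 and 3.18 at 22h and between 0.47 and 1.08 at 46h (adjusted p = 0.00962 against 22h for a change of -0.96 ± 0.27, which was -0.43 with no call after quantile normalization). EIF3I stayed within 81.0 to 134 FPKM in all libraries and passed in none of the comparisons. EIF3A, the largest core subunit, was under the filter between 0.46 and 1.81 FPKM at 0h, between 0.60 and 1.34 at 22h and between 0.66 and 0.96 at 46h, and its stages overlapped. EIF3D, which binds the cap of some mRNAs, was under the filter too, at 1.01, 1.2, 1.52 and 2.26 FPKM at 0h, above the 0.60 to 0.91 of the 22h libraries and the 0.38 to 0.96 of the 46h libraries (exact permutation p = 0.0286 against either stage). EIF3F was listed at 0 in 8 of 12 libraries and reached 1.11 FPKM in 0h replicate 4.

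**Figure D4:**
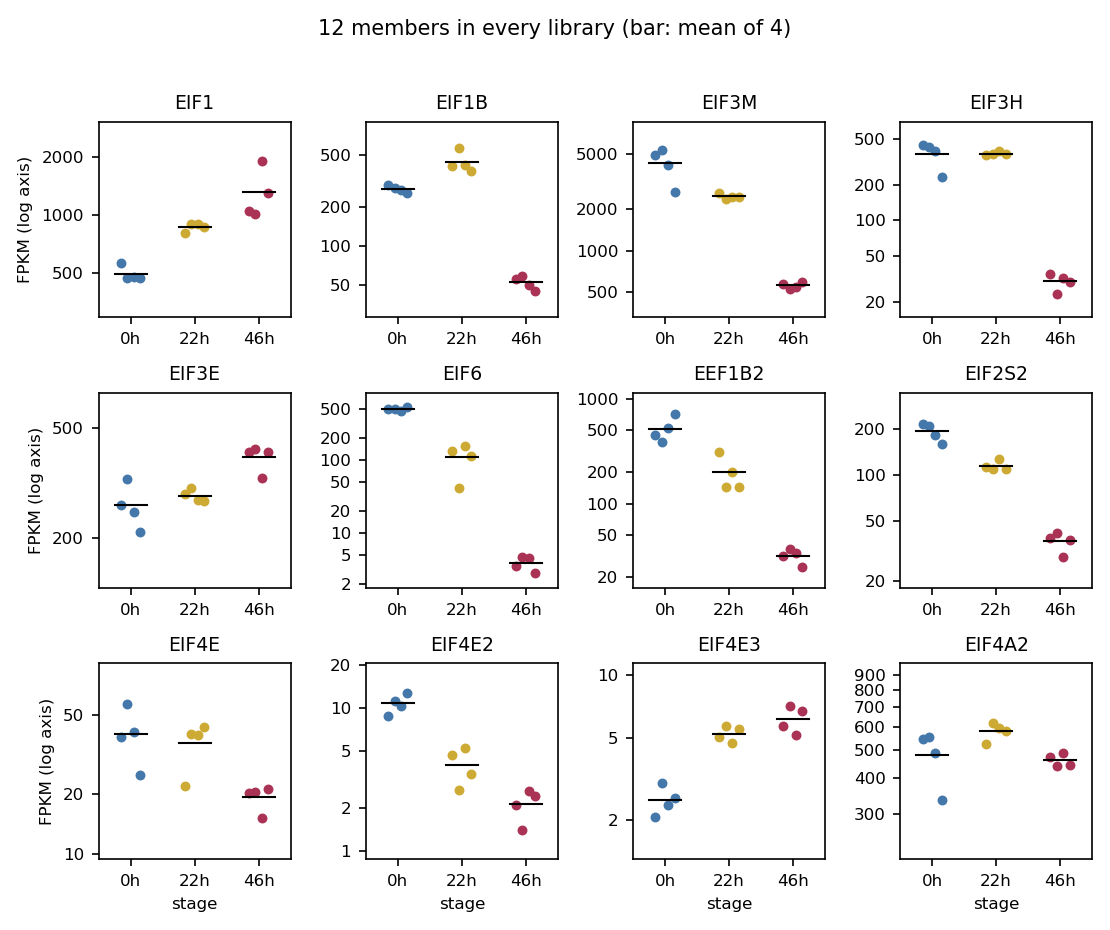
FPKM of 12 members in every library (log axes, each panel with its own range), with points for the 4 replicates of a stage and bars at their mean. EIF6 drops from 468 or more to 4.62 or less, EIF1 climbs at each stage, and EIF1B and EIF3H fall only after 22h.

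Of the cap-binding proteins, EIF4E and EIF4E2 fell and EIF4E3 rose. EIF4E, the cap-binding subunit of the initiation complex, was at 38.4, 56.4, 40.7 and 24.8 FPKM at 0h, 21.8, 39.8, 39.4 and 43.5 at 22h, and 20.1, 20.5, 15.1 and 21.2 at 46h. The 46h libraries lay below all others, with the gap to 22h replicate 1 the narrowest (-0.84 ± 0.26 against 22h, adjusted p = 0.0141, and -0.98 ± 0.26 against 0h, adjusted p = 0.00402). Both calls were lost with median-of-ratios scaling (-0.50 and -0.59) and after quantile normalization (-0.40 in each). EIF4E2 (4EHP), which binds the cap without eIF4G and is known as a repressor, fell from 8.81, 11.2, 10.2 and 12.8 FPKM at 0h over 4.65, 2.69, 5.20 and 3.45 at 22h to 2.09, 1.41, 2.61 and 2.43 at 46h. Its 46h libraries lay below those of 22h, which lay below those of 0h (-1.91 ± 0.20 over the whole maturation, adjusted p = 9.97e-07). The later step, -0.66, fell under the fold threshold without 22h replicate 3 (-0.55) or 46h replicate 2 (-0.54), and was also lost with median-of-ratios scaling (-0.40) and after quantile normalization (-0.14). EIF4E3, a cap-binding relative, rose from 2.08, 3.02, 2.36 and 2.55 FPKM at 0h to 5.03, 5.66, 4.68 and 5.48 at 22h and 5.69, 7.11, 5.16 and 6.70 at 46h (1.03 ± 0.15 at 46h against 0h, adjusted p = 2.86e-05). The FPKM ratio of EIF4E to EIF4E3 was between 9.71 and 18.7 at 0h, between 4.33 and 8.42 at 22h and between 2.89 and 3.53 at 46h, and that of EIF4E2 to EIF4E3 was 3.71 to 5.0, 0.48 to 1.11 and 0.20 to 0.51. The log2 ratios at 46h against 0h differed by -2.01 and -2.94 (exact permutation p = 0.0286 each, adjusted p = 0.0571).

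The helicase eIF4A and its helpers were less even. EIF4A2 was by far the most abundant eIF4A, between 337 and 552 FPKM at 0h, between 524 and 618 at 22h and between 439 and 488 at 46h, and passed in no comparison. EIF4A1 was at 29.6 to 56.8, 35.3 to 64.9 and 24.7 to 31.5 FPKM at these stages and was called lower at 46h (-0.81 ± 0.23 against 22h, adjusted p = 0.00954, and -0.65 ± 0.23 against 0h, adjusted p = 0.0237). The former call was lost with median-of-ratios scaling (-0.46) and after quantile normalization (-0.37). The latter was lost with median-of-ratios scaling (-0.26), after quantile normalization (-0.07), with TPM without mitochondrially encoded genes (-0.57) and without 0h replicate 1 (-0.55), 0h replicate 2 (-0.54) or 46h replicate 1 (-0.57). EIF4A3, the helicase of the exon junction complex, was lower at 22h and 46h than at 0h, and its call at 46h (-1.16) was lost after quantile normalization (-0.61, adjusted p = 0.0546). EIF4B, which stimulates eIF4A, fell from 9.81, 7.12, 13.1 and 18.4 FPKM at 0h over 6.56, 3.41, 7.61 and 4.68 at 22h to 1.70, 3.01, 1.51 and 2.05 at 46h (-2.04 ± 0.27 over the whole maturation, adjusted p = 1.46e-05). The 46h libraries lay below all others, while those of 0h and 22h overlapped. Its first step of -0.97 was -0.79 and no longer passed without 22h replicate 2 (adjusted p = 0.055), and its second of -1.07 was -0.57 with no call after quantile normalization.

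EIF4H, a related stimulator of eIF4A, was instead highest at 22h, with 61.1, 36.7, 65.1 and 90.1 FPKM at 0h, 103, 103, 92.6 and 97.2 at 22h, and 56.5, 54.01, 66.8 and 37.6 at 46h. All 22h libraries lay above all others. The rise of 0.70 ± 0.24 was barely past the test (adjusted p = 0.0378). It did not pass without 0h replicate 1, 2 or 3 or any one of the 22h libraries (0.47 to 0.74, adjusted p = 0.0556 to 0.105). The call was also lost with no filter on low values (adjusted p = 0.0805), in a fit of these stages alone (adjusted p = 0.0598) and with replicate number as a block (adjusted p = 0.0635). The fall after 22h was -0.90 ± 0.24 (adjusted p = 0.00689), and this call was lost with median-of-ratios scaling (-0.54) and after quantile normalization (-0.57). EIF4G2 (DAP5), a scaffold that lacks the eIF4E-binding region, was the most abundant eIF4G at 160 to 268, 253 to 304 and 217 to 364 FPKM and passed in no comparison. With median-of-ratios scaling and after quantile normalization it was called higher at 46h against 0h. EIF4G3 stayed at 1.44 to 5.07 FPKM and passed in none. EIF4G1, the canonical scaffold, was under the filter, between 0.76 and 2.14 FPKM at 0h, between 0.57 and 1.07 at 22h and between 0.32 and 0.48 at 46h, and its 46h libraries lay below all others (exact permutation p = 0.0286 against either stage).

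The 2 measured eIF4E-binding repressors had low FPKM. EIF4EBP1 was at 1.91, 0.73, 2.03 and 1.39 FPKM at 0h, was listed at 0 in 3 of 4 libraries at 22h with 1.09 in the remaining one, and was at 0, 0.26, 0 and 0.31 at 46h. The 0h libraries lay above all 46h libraries (exact permutation p = 0.0286). EIF4EBP2 did not exceed 0.19 FPKM in any library.

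EIF6 had the deepest fall of the family. It binds the large ribosomal subunit and keeps it apart from the small one. Its level was 494, 506, 468 and 527 FPKM at 0h, 131, 40.9, 156 and 114 at 22h, and 3.52, 4.62, 4.54 and 2.78 at 46h. The stages did not overlap, and 22h replicate 2 was the lowest of its stage. The log2 fold change was -2.32 ± 0.32 at 22h against 0h (adjusted p = 0.000136), -4.38 ± 0.32 at 46h against 22h (adjusted p = 6.43e-08) and -6.70 ± 0.32 over the whole maturation (adjusted p = 4.52e-10). EIF5A2, a paralog of the hypusine-bearing factor that frees ribosomes stalled in elongation, rose from 1.33, 1.20, 1.27 and 2.37 FPKM at 0h to 2.30, 2.70, 2.08 and 2.47 at 22h and 3.49, 3.89, 2.88 and 2.74 at 46h. All 46h libraries lay above all others (0.76 ± 0.17 against 0h, adjusted p = 0.00119).

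Among members with an EEF symbol, 4 were tested (EEF1B2, EEF1D, EEF1E1 and EEF2) and all 4 were lower at 46h than at 0h, as were 39.1% of all genes. EEF1B2, the beta subunit of the factor that recharges eEF1A with GTP, was at 448, 385, 530 and 717 FPKM at 0h, 308, 143, 202 and 142 at 22h, and 31.9, 37.0, 33.6 and 24.9 at 46h. The stages did not overlap. The change was -1.42 ± 0.26 at 22h against 0h (adjusted p = 0.000992) and -2.54 ± 0.26 at 46h against 22h (adjusted p = 1.72e-06). EEF1D, its delta subunit, was at 5.42 to 21.5 FPKM at 0h and 5.38 to 12.6 at 22h, which overlapped, and at 0.11 to 0.79 at 46h (-2.74 ± 0.35 against 22h, adjusted p = 1.73e-05). EEF1E1, a component of the aminoacyl-tRNA synthetase complex, lost its level before 22h, from 35.8, 40.7, 35.6 and 34.4 FPKM at 0h to 8.34, 3.54, 5.61 and 4.48 at 22h (-2.58 ± 0.20, adjusted p = 2.80e-06) and 3.12, 4.15, 3.68 and 3.96 at 46h. EEF2, the translocase, was at 6.30, 5.91, 8.18 and 12.99 FPKM at 0h, then between 4.03 and 5.92 at 22h and between 2.74 and 4.50 at 46h (adjusted p = 0.000647 against 0h for a change of -1.09 ± 0.22). All 46h libraries lay below those of 0h, of which replicate 4 was the highest. After quantile normalization the value was -0.42 and did not pass.

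EEF2K, the kinase that inhibits eEF2, was at 0.80, 0.66, 0.79 and 0.39 FPKM at 0h, then between 0.18 and 0.36 at 22h and between 0.09 and 0.33 at 46h, and its 0h libraries lay above all later ones (exact permutation p = 0.0286 for each). EEFSEC, the elongation factor for selenocysteine, was at 0.46 to 0.93, 0.31 to 1.05 and 0.17 to 0.30 FPKM, and its 46h libraries lay below all others (exact permutation p = 0.0286 for each). EEF1AKMT3, a methyltransferase of eEF1A, did not exceed 0.16 FPKM. EEF1A2 was listed at 0 in all libraries. Of the members known as terminal oligopyrimidine mRNAs, whose translation follows the mTOR pathway, 6 were tested, and at 46h against 0h EEF1B2, EEF1D, EEF2, EIF3H and EIF4B were lower (83.3%, against 39.1% of all genes) and EIF3E was higher (16.7%, against 16.8%).

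Other genes of the translation pathway were taken from a list of 56, of which 33 were tested. At 22h against 0h 1 was higher and 7 lower, at 46h against 22h 4 were higher and 16 lower, and at 46h against 0h 4 were higher and 16 lower (medians of -0.09, -0.53 and -0.51, beside -0.0012, -0.26 and -0.25 over all genes). The higher ones were 3.03%, 12.1% and 12.1% of those tested, beside 7.84%, 9.87% and 16.8% of all genes, and the lower ones 21.2%, 48.5% and 48.5%, beside 18.9%, 32.6% and 39.1%. PAIP2, which holds poly(A)-binding protein off the mRNA, went from 363 ± 95 FPKM (SD, n = 4) at 0h and 297 ± 27 at 22h to 1.83 ± 0.52 at 46h (-6.98 ± 0.21 against 0h, adjusted p = 9.79e-12). PDCD4, an inhibitor of eIF4A, went from 173 ± 11 and 130 ± 13 FPKM to 22.0 ± 1.5 (-2.92 ± 0.14 against 0h, adjusted p = 3.94e-10). DHPS, the enzyme of the first step in making hypusine on eIF5A, fell from 19.6 ± 2.8 FPKM at 0h over 5.57 ± 2.92 to 0.52 ± 0.36 (-3.78 ± 0.33, adjusted p = 1.93e-07). The termination factors ETF1 and GSPT1 were both lower at 46h than at either earlier stage. MKNK1, a kinase of eIF4E, was higher at 46h than at 0h, with 22.4 ± 6.0 against 11.8 ± 1.1 FPKM (0.84 ± 0.19, adjusted p = 0.00165).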

How the data were processed

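FPKM values of 12 libraries, 4 per time point, were analysed. The authors amplified oocyte RNA by SMART-Seq2, trimmed reads with Trim Galore, aligned them to Sscrofa11 with STAR and deposited FPKM made with RSEM. The study tested counts from HTSeq, not used here, and the deposited FPKM are no counts, so limma (version 3.58.1 under R 4.3.3, lmFit and eBayes with trend) was applied to log2(FPKM + 1) of all 12 libraries with stage as the only factor, two-sided, after a filter on an average FPKM of 1. P-values were Benjamini-Hochberg adjusted over all 7013 genes, and the fit was tested on simulated data. The members' share of total FPKM, the log2 ratios of pairs and the members under the filter were compared by exact permutation of 4 against 4 libraries. For the FPKM of tested members, overlap between the libraries of the stages was described and not tested. Log2 fold changes carry SE, FPKM carry SD, n = 4 a stage, and the added 1 understates the change of low genes. The 5 largest rises and falls called in each comparison were named, with members listed by role and the 3 most abundant; others named were chosen after their values were seen. Members, roles and lists were chosen with earlier results of these data known. Sequences came from RefSeq on Sscrofa11.1 by symbol, read with pysam 0.24.0. Tables were made with Python 3.11.15, pandas 2.3.3 and scipy 1.17.1. Alternatives were another pseudocount, filters, scalings, models, a replicate block and each library left out.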

Additional observations from a re-analysis of the deposited data

Results flagged for a closer look

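In 12 of 123 stage groups of the named members, one library stood apart from the other 3 of its stage, with a gap to the nearest that filled most of the range of log2(FPKM + 1) in that stage. Chance alone flags about 1 group in 20. The high libraries were EEF2 at 46h in replicate 2 (4.50 FPKM), EIF1 at 0h in replicate 1 (558 FPKM), EIF2AK4 at 0h in replicate 1 (5.08 FPKM), EIF2B5 at 0h in replicate 4 (2.16 FPKM), EIF2S2 at 22h in replicate 3 (127.5 FPKM), EIF3H at 22h in replicate 3 (393.4 FPKM), EIF4EBP1 at 22h in replicate 3 (1.09 FPKM) and EIF5A2 at 0h in replicate 4 (2.37 FPKM). The low libraries were EIF3A at 22h in replicate 4 (0.60 FPKM), EIF3E at 46h in replicate 3 (328.9 FPKM), EIF4E at 22h in replicate 1 (21.8 FPKM) and EIF4E at 46h in replicate 3 (15.1 FPKM). The flags were spread over 7 libraries, with at most 3 in one, 22h replicate 3. At 22h EIF4E stood at 39.4 to 43.5 FPKM in the other 3 libraries, and EIF4EBP1 was listed at 0 in them.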

How the results depend on the processing

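The 57 called changes of named members kept their direction under every alternative run, and 40 of them also stayed past both thresholds in each. The count of higher members at 46h against 22h, 1 with FPKM as deposited, was 2 with a pseudocount of 0.1, 6 with median-of-ratios scaling, 5 with quantile normalization, 2 with TPM without mitochondrially encoded genes, 4 with no fold threshold and 1 to 3 with a library left out (3 without 46h replicate 2, and 2 without 22h replicate 3 or 4 or 46h replicate 1). The count of lower members in that comparison was 12 in place of 19 with quantile normalization. The count of higher members at 22h against 0h was 3 to 6 with a library left out, 3 without 22h replicate 2. The difference in the members' share of total FPKM at 22h against 0h was -0.37 to -0.21 percentage points with a library left out. No source ties the replicate numbers to a shared batch or animal, and they were not taken to pair the libraries: same-numbered libraries of 0h and 22h had correlated deviations of -0.47 to 0.08, those of 0h and 46h -0.28 to 0.08 and those of 22h and 46h 0.01 to 0.38, and no 0h library correlated best with its own number. Between 22h and 46h, 3 of 4 pairs were over 0.1 and 3 of 4 libraries correlated best with their own number, a hint from the data and not from the design. With the replicate block, 4 members were higher and 16 lower at 22h against 0h, 1 and 20 at 46h against 22h, and 8 and 24 at 46h against 0h, and of the named calls EIF4H at 22h against 0h was lost (adjusted p = 0.0635). The cause of these changes was not tested. Depth is unknown for FPKM, so levels under 1 FPKM are the least certain.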
